A study of Homo sapiens with 30 samples.

Results

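The extracellular matrix genes FN1, VCAN, TGM2, SPARC, TNC, THBS1, TIMP3 and LOX were followed across prostate cell lines that express the transcription factor ERG, activated AKT, or both. These 8 genes were picked by name from the 26251 genes used in the deposited expression table, and all 8 passed a filter of at least 1 FPKM (fragments mapped to a transcript, scaled by its length and by the depth of the library) in any line, as did 12667 genes. They were picked with the levels in these lines known, so the RNA levels below are a description and no test was made of them.

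RWPE1 is an immortalized line of normal human prostate epithelial cells. RNA was sequenced from 4 RWPE1 lines, each with 3 libraries: RWPE1-vector, which carries the empty retroviruses pQCXIH and pBabe-puro, RWPE1-ERG, which carries pQCXIH-ERG and pBabe-Puro, RWPE1-mAKT, which carries pQCXIH and pBabe-Puro-Myr-AKT for a myristoylated and so constitutively active AKT, and RWPE1-ERG/mAKT, which carries pQCXIH-ERG and pBabe-Puro-Myr-AKT. Open chromatin was mapped by ATAC-seq in the ERG, mAKT and ERG/mAKT lines, the binding of ERG by ChIP-seq in RWPE1-ERG/mAKT and in VCaP cells given vehicle (DMSO), and the binding of the kinase ERK2 in vector and ERG cells. The repressive histone mark H3K27me3 was mapped in vector cells, ERG cells and cells with ERG S96E, a phosphomimetic mutant. VCaP is a prostate cancer line that carries the TMPRSS2-ERG rearrangement. Each ChIP or ATAC group had 1 library, all lines apart from VCaP were retrovirally transduced and then selected, and the lines for ERK2 and H3K27me3 carried pQCXIH constructs without mAKT or pBabe-puro named.

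The matrix around cells is built from secreted glycoproteins that are laid down, cross-linked and trimmed outside the cell. Fibronectin and versican make up much of the provisional matrix of wounds and of tumour stroma, transglutaminases and lysyl oxidases tie its proteins together, and SPARC, tenascin-C and thrombospondin-1 tune how firmly cells hold to it. Fibroblasts make most of these proteins in the prostate, and epithelial cells that pass through an epithelial to mesenchymal transition begin to make them too. ETS factors such as ERG bind DNA around a GGAA core, and AP-1 binds TGANTCA.

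The constructs were seen in the RNA. ERG was at 0.264 FPKM in vector cells, 358 in RWPE1-ERG, 0.435 in RWPE1-mAKT and 328 in RWPE1-ERG/mAKT. AKT1, whose level can include the transgene, was at 58.7 and 64.2 FPKM in vector and ERG cells and at 156 and 281 in mAKT and ERG/mAKT cells. The lines kept the marks of epithelium: KRT5, a basal keratin, was at 3126, 1169.8, 3642 and 3519 FPKM in vector, ERG, mAKT and ERG/mAKT cells, and KRT8, a luminal keratin, at 622, 1769, 671 and 921. KLK3, a secreted protease of luminal prostate cells, was listed at 0 in all 4 lines. The word mesenchymal describes the genes here, and the cells are epithelial by these markers.

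The sequences under some of the ERG peaks called at these genes are shown first. Each line below gives the 50 bases to either side of a peak summit on the plus strand of hg19, with the ETS letters GGAA and GGAAGTGA and the AP-1 letters TGANTCA in capitals on whichever strand they lie. The first 3 are from RWPE1-ERG/mAKT cells and lie near TGM2, and the other two are from VCaP cells. The first and second lie in chromatin that was open in all 3 ATAC lists, the third holds GGAAGTGA, the fourth was open in RWPE1-ERG cells, and the last is the strongest VCaP peak near a member.
TGM2 upstream, chr20:36796573-36796673: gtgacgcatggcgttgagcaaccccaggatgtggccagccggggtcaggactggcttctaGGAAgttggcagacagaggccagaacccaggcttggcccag
TGM2 downstream, chr20:36738443-36738543: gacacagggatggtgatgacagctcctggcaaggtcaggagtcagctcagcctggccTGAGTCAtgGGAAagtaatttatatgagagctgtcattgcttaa
TGM2 intron, chr20:36763510-36763610: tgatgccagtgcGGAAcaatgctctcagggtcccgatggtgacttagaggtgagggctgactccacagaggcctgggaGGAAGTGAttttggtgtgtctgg
TNC intron, chr9:117870212-117870312: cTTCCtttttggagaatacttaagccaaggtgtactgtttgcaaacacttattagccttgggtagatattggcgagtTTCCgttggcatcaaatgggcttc
SPARC intron, chr5:151043292-151043392: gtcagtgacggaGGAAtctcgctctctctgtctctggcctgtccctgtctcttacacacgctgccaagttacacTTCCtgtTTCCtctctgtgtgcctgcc

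The stretch before the start of THBS1 and of TIMP3 is shown because an ATAC peak covers both starts and no annotated exon lies in either window. The sequences are from RefSeq (GRCh38.p14) and were found by exact match in hg19, where the positions are given. Capitals mark the same letters.
THBS1 promoter, chr15:39873030-39873279: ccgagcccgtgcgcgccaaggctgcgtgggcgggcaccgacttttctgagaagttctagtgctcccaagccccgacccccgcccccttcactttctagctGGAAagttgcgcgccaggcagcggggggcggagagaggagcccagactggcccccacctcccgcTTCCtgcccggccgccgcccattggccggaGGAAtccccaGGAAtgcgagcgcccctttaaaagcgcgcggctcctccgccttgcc
TIMP3 promoter, chr22:33197441-33197690: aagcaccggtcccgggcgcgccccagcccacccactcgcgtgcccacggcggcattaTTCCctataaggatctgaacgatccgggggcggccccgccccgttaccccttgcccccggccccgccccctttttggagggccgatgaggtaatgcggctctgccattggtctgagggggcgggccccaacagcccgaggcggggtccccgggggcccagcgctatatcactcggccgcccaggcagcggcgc

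Of these windows, the upstream TGM2 one held 1 GGAA, and the downstream one held 1 GGAA and 1 TGAGTCA, whose letters do not overlap. The THBS1 promoter held 4 and the TIMP3 promoter 1 copy of GGAA on either strand, and neither held TGANTCA. Over 35116 RefSeq promoters of the same length, 92.7% held GGAA, 6.57% held TGANTCA and 2.89% held GGAAGTGA. Both promoters were rich in CpG, with 24 in THBS1 and 26 in TIMP3 beside a median of 11, and their GC content was 69.6% and 72.4% beside a median of 58.0%.

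FN1 and VCAN, of the provisional matrix, had different orders. FN1, which encodes fibronectin, was at 83.7 FPKM in RWPE1-vector, 228 in RWPE1-ERG, 53.4 in RWPE1-mAKT and 23.8 in RWPE1-ERG/mAKT. Its level was highest with ERG alone and lowest with ERG and mAKT together, 9.55-fold apart. VCAN, which encodes the large proteoglycan versican, was at 7.17, 2.01, 0.915 and 0.273 FPKM in the same order of lines. It was highest in vector cells and lower with each construct, and lowest with both, 26.3-fold below vector. Each value is pooled over 3 libraries and no value of a single library was used, so whether neighbours in these orders differ beyond the spread between libraries was not tested.

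The cross-linking enzymes TGM2 and LOX were both highest in RWPE1-ERG. TGM2, a transglutaminase that joins glutamine to lysine residues of fibronectin and other proteins, was at 8.73 FPKM in vector, 53.5 in ERG, 5.36 in mAKT and 4.18 in ERG/mAKT cells. The ERG line stood 6.13-fold above vector and 12.8-fold above ERG/mAKT. LOX, which oxidizes lysines of collagen and elastin so that they cross-link, was at 4.68, 6.96, 2.40 and 3.04 FPKM. Its 4 levels lay within 2.90-fold of each other, with both mAKT lines below both lines without mAKT.

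The matricellular genes SPARC, TNC and THBS1 differed in the ERG line. SPARC, which binds collagen and lowers cell adhesion, was at 31.6 FPKM in vector, 67.5 in ERG, 12.2 in mAKT and 15.4 in ERG/mAKT cells. THBS1, a thrombospondin that binds heparin and CD47 and can activate latent TGF-beta, was the most abundant of the 8, at 229, 491, 188 and 163 FPKM. In vector cells 96.6% of expressed genes were lower. TNC, a hexameric glycoprotein of wounds and tumour stroma, was at 24.9, 15.3, 11.4 and 10.5 FPKM and so was lower in each of the 3 modified lines than in vector cells.

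TIMP3, a matrix-bound inhibitor of metalloproteinases, was the only one of the 8 with its highest level in RWPE1-mAKT. It was at 5.14 FPKM in vector, 1.05 in ERG, 8.65 in mAKT and 7.67 in ERG/mAKT cells. The ERG line was the lowest and both mAKT lines were above vector. TIMP3 lies within an intron of SYN3 on the other strand, and the expression table gives it the locus of SYN3 (chr22:32908540-33454377). SYN3 itself was at 0.0264 FPKM or less in every line.

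**Figure D1:**
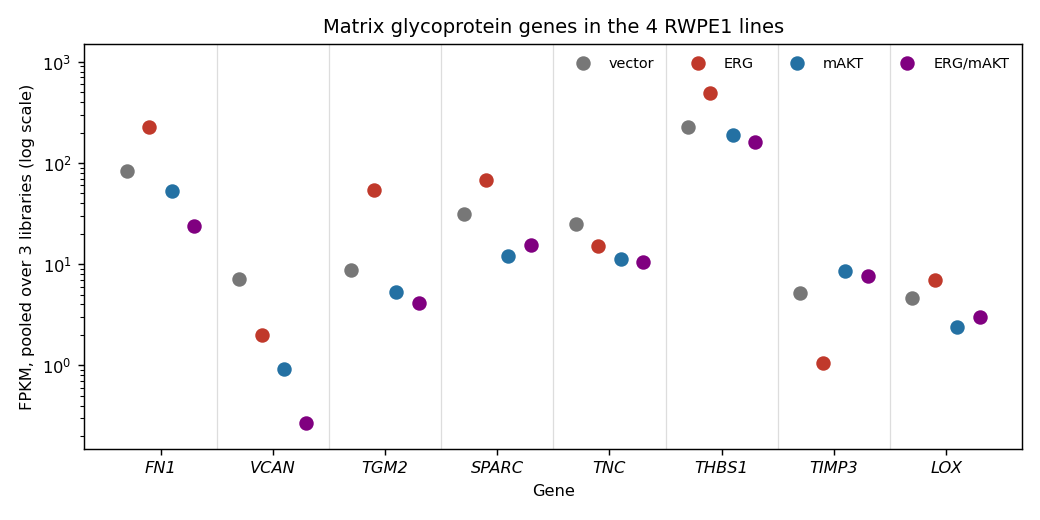
Levels of the 8 genes in the 4 RWPE1 lines, as the authors' pooled FPKM on a log axis, 1 point per gene and line. FN1, TGM2, SPARC, THBS1 and LOX are highest in the ERG line, VCAN and TNC in the vector line, and TIMP3 in the mAKT line.

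Addition of ERG to vector cells asked what the factor does alone. Ratios are given as the log2 ratio of FPKM + 1, which understates the change of genes at low levels, and a 2-fold limit was used for counts. With ERG, 4 of the 8 genes were at least 2-fold higher (TGM2, FN1, THBS1 and SPARC) and 2 were at least 2-fold lower (TIMP3 and VCAN), whereas 3.58% of all expressed genes were higher and 0.971% lower. The log2 ratio was 2.49 for TGM2, 1.43 for FN1, 1.10 for THBS1, 1.07 for SPARC, 0.49 for LOX, -0.67 for TNC, -1.44 for VCAN and -1.58 for TIMP3. A ratio as high as that of TGM2 was found in 0.529% of genes, and one as low as that of TIMP3 in 0.489%. The median over the 8 was 0.78 and that over all expressed genes -0.01. As the genes were picked on these levels, nothing is read from the counts.

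The effect of mAKT was read without ERG. In RWPE1-mAKT relative to vector, none of the 8 was 2-fold higher and 3 were 2-fold lower, where 1.14% and 0.813% of all genes were. The lower genes were VCAN, with a log2 ratio of -2.09, SPARC, with -1.31, and TNC, with -1.07. LOX (-0.74), FN1 (-0.64), TGM2 (-0.61) and THBS1 (-0.28) were below vector within the 2-fold limit, and TIMP3 was above it at 0.65.

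AKT was also activated in cells that already had ERG. In RWPE1-ERG/mAKT relative to RWPE1-ERG, 5 of the 8 genes were at least 2-fold lower and 1 was higher, where 2.47% and 2.02% of all genes were. TGM2 had a log2 ratio of -3.40, FN1 -3.20, SPARC -2.07, THBS1 -1.58 and VCAN -1.24, and TIMP3 had 2.08. LOX, at -0.98, lay just inside the limit and passed it with a pseudocount of 0.1 FPKM in place of 1, at -1.17, and TNC was at -0.51. Ratios as low as those of TGM2 and FN1 were found in 0.197% and 0.229% of genes, and the median over the 8 was -1.41.

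ERG was likewise added to cells with mAKT. In RWPE1-ERG/mAKT relative to RWPE1-mAKT, FN1 alone passed 2-fold, at -1.13, where 0.868% of all genes were lower and 2.03% higher. The other 7 ratios lay between -0.59 for VCAN and 0.31 for SPARC. VCAN, at 0.273 against 0.915 FPKM, was 3.35-fold lower as FPKM, and with a pseudocount of 0.1 its log2 ratio was -1.45, past the limit. In RWPE1-ERG/mAKT relative to vector, 3 genes were 2-fold lower and none higher, where 1.07% and 2.92% of all genes were. These were VCAN at -2.68, FN1 at -1.77 and TNC at -1.18, with SPARC at -0.99 and TGM2 at -0.91 inside the limit, which both passed with a pseudocount of 0.1, at -1.04 each. The 5 comparisons share lines, so their ratios are not independent of each other.

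The ratio for ERG was thus set side by side without and with mAKT. The log2 ratio for ERG was lower with mAKT than without by over 2-fold in 3 of the 8 genes and higher in 1, where 2.63% and 1.71% of all genes were. The difference was -2.78 for TGM2, -2.56 for FN1, -1.30 for THBS1 and 1.43 for TIMP3. It was -0.76 for SPARC, -0.24 for LOX, 0.56 for TNC and 0.85 for VCAN. That of VCAN rests largely on the 1 FPKM added at its low levels. As FPKM, VCAN was 3.56-fold lower with ERG in cells without mAKT and 3.35-fold lower in cells with it. These differences were not tested.

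**Figure D2:**
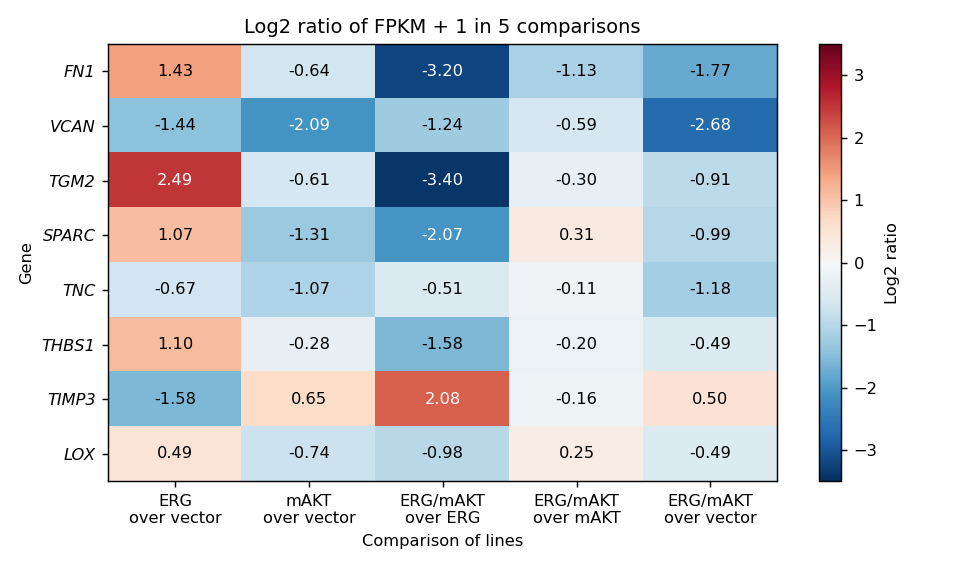
Log2 ratio of FPKM + 1 for each gene (rows) in 5 comparisons of lines (columns), with the value printed in each cell and coloured from blue (lower) to red (higher). TGM2 is at 2.49 for ERG over vector and at -3.40 for ERG/mAKT over ERG, TIMP3 has the opposite signs in these columns, and the column for ERG/mAKT over mAKT is pale.

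Some genes outside the group had a like profile over the lines. Likeness was the Euclidean distance between the 3 log2 ratios over vector, among 9314 genes with at least 5 FPKM in any line. CDH4, which encodes R-cadherin, was nearest to the median profile of the 8 genes, at a distance of 0.155. MIR5001, NEDD4L and CTIF were also among the nearest 5. The nearest gene to TGM2 was PLCB4, a phospholipase, at 0.295, to SPARC the N-cadherin gene CDH2 at 0.284 and to TIMP3 the receptor gene FGFR3 at 0.170. FN1 had no near neighbour, the closest being SNORA80E at 0.624. The nearest to TNC and THBS1 were DNAJB5 at 0.255 and GAS6-AS2 at 0.117. Among the 8 themselves, THBS1 and LOX were closest, at 0.76, and VCAN and TGM2 farthest, at 4.55.

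Relatives of these genes by family were counted next. Of 30 other thrombospondins, TIMPs, lysyl oxidase-like enzymes, transglutaminases, tenascins, lecticans and SPARC relatives, 11 were expressed. With ERG alone, 4 of the 11 were 2-fold higher and none lower, beside the 3.58% and 0.971% of all genes. SMOC1, a SPARC relative of basement membranes, went from 3.56 to 14.0 FPKM, LOXL1 from 1.56 to 6.29, TIMP2 from 20.3 to 46.0 and LOXL2 from 4.59 to 10.8. In ERG/mAKT relative to ERG, 4 of the 11 were 2-fold lower and none higher, beside 2.47% and 2.02% of all genes: SPOCK1 at 2.58 against 8.22 FPKM, LOXL2 at 4.15 against 10.8, LOXL1 at 2.36 against 6.29 and TIMP1 at 102 against 206. With mAKT alone, where 1.14% of all genes were higher and 0.813% lower, none of the 11 passed 2-fold, and their median log2 ratio was -0.07.

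Among 38 other matrix glycoproteins and small proteoglycans, 25 were expressed. Of these, 7 were 2-fold higher and 2 lower with ERG alone, beside 3.58% and 0.971% of all genes. CYR61, a matricellular protein and target of the Hippo pathway, was at 65.4 FPKM in vector and 255 in ERG cells, and EFEMP1, a fibulin, at 59.5 and 141. LTBP1, which holds latent TGF-beta in the matrix, was lower, at 5.84 and 1.58, as was ECM1, at 12.0 and 4.29. In ERG/mAKT relative to ERG, 7 were lower and none higher, beside 2.47% and 2.02% of all genes. CYR61 was at 51.5 FPKM and its relative CTGF at 5.54, against 255 and 24.1 in ERG cells, and SRPX2 and SRPX had log2 ratios of -1.33 and -1.29. BGN, the small proteoglycan biglycan, was highest with both constructs, at 7.57 FPKM against 1.80 in vector cells.

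The receptors to which these proteins bind, and the proteases that cut them, were listed too. Of 14 expressed integrins, syndecans and other receptors, none passed 2-fold with ERG alone, beside 3.58% of all genes higher and 0.971% lower, or with mAKT alone, beside 1.14% and 0.813%. ITGB5, an integrin subunit that pairs with alpha v to bind vitronectin, was at 36.4 FPKM in vector, 24.1 in ERG, 24.3 in mAKT and 13.1 in ERG/mAKT cells, and ITGA5, of the fibronectin receptor, at 45.1, 55.5, 38.5 and 35.3. Of 7 expressed matrix proteases, HTRA1 was 2-fold lower with ERG, at 9.74 against 29.4 FPKM, and none was 2-fold higher, beside the same 0.971% and 3.58%. MMP14, a membrane-bound collagenase, was at 54.7, 85.2, 54.9 and 61.5 FPKM. In ERG/mAKT relative to ERG, 1 of the 14 receptors was higher (LRP1, 3.51 against 1.03 FPKM), 1 was lower (ITGA4, 0.60 against 2.37 FPKM), and no protease passed 2-fold, beside 2.02% of all genes higher and 2.47% lower.

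**Figure D3:**
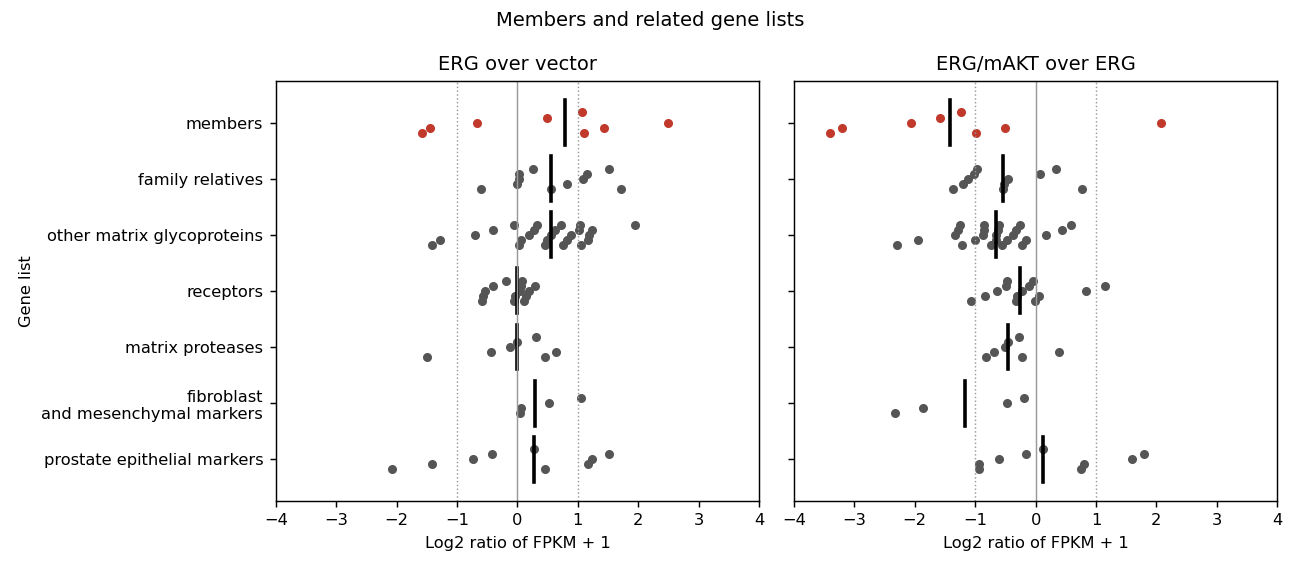
Log2 ratio of FPKM + 1 for ERG over vector (left) and ERG/mAKT over ERG (right), 1 point per expressed gene, by list, with the list's median as a black bar and the 2-fold limits dotted. The median of the 8 genes is 0.78 at left and -1.41 at right, that of the family relatives 0.55 and -0.54, and that of the receptors 0.00 and -0.27.

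Markers of other cells were read beside these levels. Of 14 fibroblast and mesenchymal markers, 10 were below 1 FPKM and 7 below 0.1 FPKM in all 4 lines, and COL3A1 and PDGFRA were listed at 0 in each. The summed level of the list was 749 FPKM in vector, 1073 in ERG, 374 in mAKT and 295 in ERG/mAKT cells, nearly all of it VIM, the intermediate filament vimentin, at 737, 1056, 366 and 288. CDH2 was at 3.04, 7.38, 0.610 and 0.666 FPKM. The remaining expressed markers of this list changed little with ERG alone. TWIST1 was at 5.66, 5.89, 4.95 and 3.97 FPKM, and COL1A1 at 2.05, 2.18, 1.93 and 1.78. Of 7 endothelial markers, 6 were below 1 FPKM in all lines, and the summed level ran from 13.2 to 22.4 FPKM, nearly all EGFL7. The 11 epithelial markers summed to 8048, 5997, 8380.5 and 7211 FPKM, a sum set mainly by a few keratins that went different ways. KRT14, like KRT5, was lowest in ERG cells, at 2936, 699.5, 2527 and 1185 FPKM. KRT18, like KRT8, was highest there, at 817, 1843, 987 and 958. With ERG alone, 3 of the 9 expressed epithelial markers were 2-fold higher and 2 lower, beside 3.58% and 0.971% of all genes. Their median log2 ratio was 0.28. The part of such shifts in the levels of the 8 genes was not tested, and in pooled RNA fewer cells that make a transcript and less of it per cell cannot be told apart.

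All 8 genes had an ATAC peak within 20 kb in each of the 3 lines, as did 98.4%, 98.3% and 97.7% of all expressed genes. With the gene spans of the GENCODE annotation, 45 peaks lay near the 8 genes in RWPE1-ERG, 33 in RWPE1-mAKT and 22 in RWPE1-ERG/mAKT, out of lists of 63354, 57999 and 42081 peaks. SPARC had 8, 6 and 1 peaks in these lines, TIMP3 7, 3 and 2, TNC 9, 7 and 4, VCAN 6, 2 and 4, THBS1 5, 4 and 3, TGM2 7, 9 and 4, FN1 2, 1 and 3, and LOX 1 in each. When the 33000 peaks of lowest p-value were kept in each list, the totals were 21, 13 and 15. For TIMP3, the locus in the table gave 25, 16 and 12 peaks.

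The peaks near these genes were then compared between the lines. Of the 45 peaks of RWPE1-ERG, 60.0% overlapped one of RWPE1-mAKT and 46.7% one of RWPE1-ERG/mAKT, beside 72.7% and 58.5% of that whole list. Of the 22 peaks of RWPE1-ERG/mAKT, 95.5% overlapped one of RWPE1-ERG and 77.3% one of RWPE1-mAKT, beside 88.4% and 89.3% of the whole list. Of the 33 peaks of RWPE1-mAKT, 81.8% overlapped one of RWPE1-ERG and 51.5% one of RWPE1-ERG/mAKT, beside 79.3% and 64.5%. At SPARC, the strongest peak of RWPE1-ERG (chr5:151050804-151051319, fold enrichment 6.75) lay 15.5 kb past the gene start, and the sole peak of RWPE1-ERG/mAKT lay downstream of the gene (chr5:151031692-151032024, 3.81). At VCAN, the strongest peak of RWPE1-ERG (chr5:82863778-82864323, intron, 9.48) was in neither other list.

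At the gene starts, FN1, TNC, THBS1 and LOX had an ATAC peak within 1 kb in all 3 lists. TIMP3 had one in RWPE1-ERG (fold enrichment 5.05) and RWPE1-ERG/mAKT (3.53) and none in RWPE1-mAKT, where its RNA was highest. Thus 5, 4 and 5 of the 8 starts had a peak, where 85.6%, 85.3% and 81.8% of all starts had one. The GENCODE starts of VCAN, TGM2 and SPARC had none within 1 kb. The expression table starts TGM2 further in, at chr20:36793700. An ATAC peak covered that position in RWPE1-ERG (chr20:36793618-36793912, fold enrichment 3.62), 1.2 kb past the GENCODE start, and was in neither other list. The nearest peak to the start of VCAN lay 2.4 kb inside the gene (chr5:82769008-82770597 in RWPE1-ERG) and was found in all 3 lists, and the nearest upstream peak of TGM2 lay 1.7 kb before the start (chr20:36796409-36796915) and was also found in all 3. The fold enrichment of the latter was 6.61, 4.37 and 4.79 in ERG, mAKT and ERG/mAKT cells. An ATAC library of vector cells was not analysed here.

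ERG peaks of RWPE1-ERG/mAKT were found near TGM2 and TIMP3. By the locus of the table, 2 of the 8 genes had an ERG peak within 20 kb, where 32.5% of all expressed genes had one. TGM2 had 7 peaks, and TIMP3 had 1, which lay upstream of its start (chr22:32985117-32985225) and outside 20 kb of its GENCODE span. FN1, VCAN, SPARC, TNC, THBS1 and LOX had none. As many as 7 peaks were found near 0.0787% of 11434 genes. The list holds 9113 peaks, of which 450 have a q-value of at most 0.01, and its header gives 10306483 ChIP and 14670664 input reads, so weak sites may not be detectable at this depth.

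The 7 peaks at TGM2 ran from 2.6 kb before the start to 56.5 kb past it. The strongest, at chr20:36796538-36796696, lay 1.6 kb upstream with a fold enrichment of 5.66 and a -log10 q-value of 2.70, and its summit window is the first sequence above. No other of the 7 passed a q-value limit of 0.01. A peak downstream of the gene at chr20:36738403-36738511 had a fold enrichment of 3.52 and a -log10 q-value of 0.155, and holds the TGAGTCA. These 2 were the only ones of the 7 that overlapped an ATAC peak, and both did so in all 3 lists. A group of 3 lay in introns between 30.1 and 32.0 kb past the start, with fold enrichments of 4.11 to 4.60, and 1 of them holds the GGAAGTGA. TGM2 RNA was lowest in the line in which these peaks were called, at 4.18 FPKM. ERG peaks of RWPE1-ERG cells were not analysed here.

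In VCaP cells, 4 of the 8 genes had an ERG peak within 20 kb by the locus of the table, where 24.7% of all genes had one, and 3 by the GENCODE span. SPARC had 3, FN1 1 and TNC 1, and the 3 of TIMP3 lay over 130 kb past its start. The strongest was in an intron of SPARC (chr5:151043267-151043510, fold enrichment 4.73, -log10 q-value 3.89), and its summit window held 3 copies of GGAA on either strand. That of TNC (chr9:117870168-117870462, 4.69, -log10 q-value 3.26) lay in an intron 10.2 kb past the start and overlapped an ATAC peak of RWPE1-ERG cells only. The peak of FN1 (chr2:216267751-216267916, 3.14, -log10 q-value 0.246) held no GGAA. TGM2 had no ERG peak in this list, that of VCaP cells given vehicle.

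Within 50 bases of the summit, GGAA was found in 5 of the 7 peaks of RWPE1-ERG/mAKT and 3 of the 5 of VCaP, beside 67.1% of all 9113 and 70.5% of 5919 peaks. GGAAGTGA was found in 1 of the 7 and 0 of the 5, beside 1.35% and 0.997%. TGANTCA was found in 1 of each, beside 7.30% and 2.48%. The letters alone say nothing of which factor was bound.

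**Figure D4:**
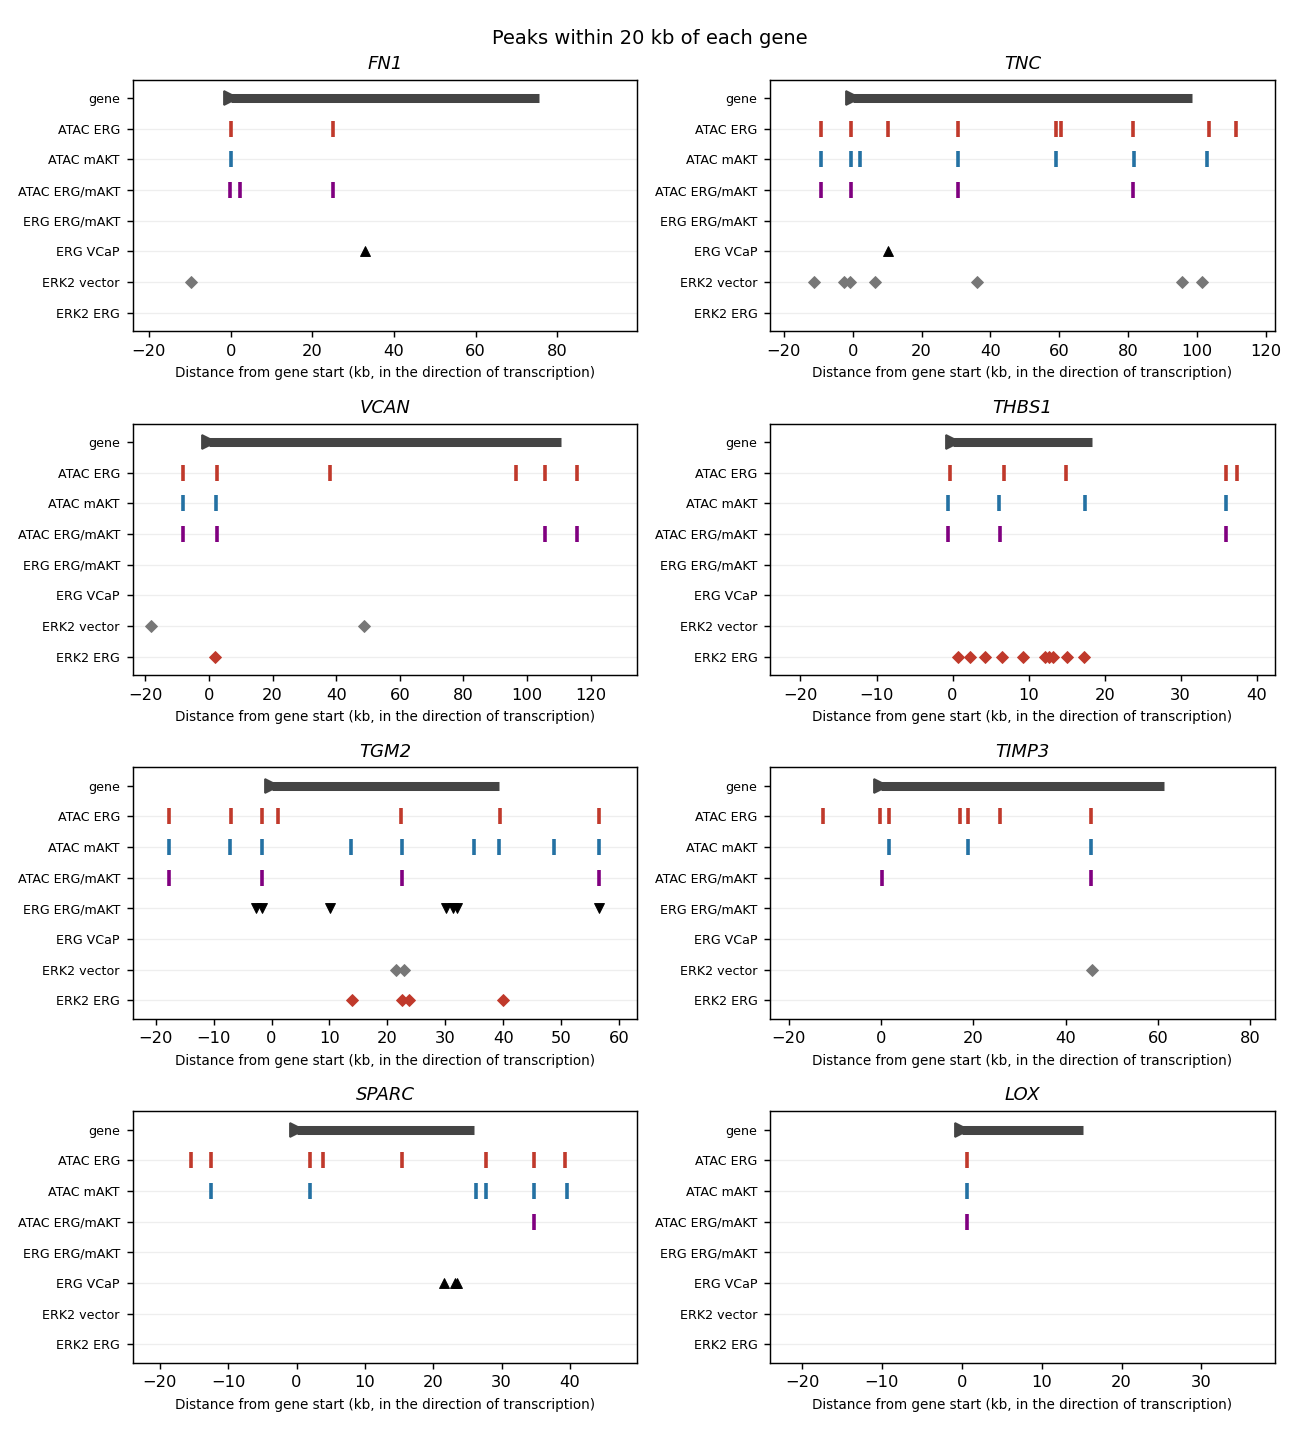
Peaks within 20 kb of the GENCODE span of each gene, by distance of the peak from the gene start in kb along the direction of transcription, with the gene as a grey bar and 1 row per list of peaks (ATAC bars, ERG triangles, ERK2 diamonds). TGM2 has all 7 ERG peaks of RWPE1-ERG/mAKT, THBS1 has 10 ERK2 peaks along its length in ERG cells, and TNC has 7 in vector cells.

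ERK2 was mapped because ERK phosphorylates ERG. In RWPE1-vector, 5 of the 8 genes had an ERK2 peak within 20 kb, where 76.6% of all genes had one. TNC had 7, VCAN and TGM2 2 each, and FN1 and TIMP3 1 each. As many as 7 were found near 6.17% of genes, and none of the 13 peaks had a q-value of at most 0.01. TNC spans 98.7 kb, where the median over expressed genes is 32.8 kb, and the part of gene length in its count was not tested. TNC alone had a peak within 1 kb of the start, at chr9:117881218-117881464 with a fold enrichment of 3.39, where 13.2% of all genes had one, in chromatin that was open in all 3 ATAC lists. The strongest TNC peak was in an exon 36.2 kb past the start (chr9:117844185-117844443, 3.80).

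In RWPE1-ERG, 3 of the 8 genes had an ERK2 peak, where 33.4% of all genes had one. THBS1 had 10, TGM2 4 and VCAN 1, and FN1, SPARC, TNC, TIMP3 and LOX had none. The 10 THBS1 peaks all lay inside the gene, from 0.7 to 17.3 kb past the start, and 4 of them overlapped an ATAC peak of any line. THBS1 was also the sole member with a peak within 1 kb of its start, where 8.55% of all genes had one. The strongest (chr15:39890060-39891059, fold enrichment 5.98, -log10 q-value 3.10) lay at the 3' end in annotated UTR and overlapped an ATAC peak of RWPE1-mAKT only. Alone of the 15 peaks it passed the q-value limit of 0.01. As many as 10 ERK2 peaks were found near 0.516% of genes. THBS1 was also highly expressed in this line, above 97.8% of genes. Among the 572 genes in the top 5% by FPKM, 29.2% had an ERK2 peak inside the gene, against 17.0% of the others. In vector cells these shares were the other way round, at 43.0% and 50.5%. THBS1, above 96.6% of genes in vector cells, had no ERK2 peak there. The part of transcription level in the THBS1 peaks was not tested.

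The TGM2 peaks in RWPE1-ERG lay in or at the end of the gene. The peaks at chr20:36754896-36755280 and chr20:36772387-36772898 had fold enrichments of 4.21 and 4.20, and the second overlapped an ATAC peak of all 3 lists. The VCAN peak (chr5:82769336-82769520, 3.61) lay in the open stretch 2.0 kb past the start. TGM2 and VCAN had ERK2 peaks in both lines, and the intronic open stretch of TGM2 near 22.5 kb held one in each. Most ERK2 peaks are weak calls. A q-value of at most 0.01 was reached by 306 of 41276 peaks in the vector list and 178 of 5721 in the RWPE1-ERG list. Near these genes the -log10 p-value of the ERK2 peak calls went down to 2.31 and 2.08, whereas every ERG peak near them had 3.53 or more. The 2 ERK2 lists come from 8393459 and 15020233 ChIP reads and have unequal inputs, so counts of peaks are not compared between the lines.

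The mark H3K27me3, laid down by the Polycomb Repressive Complex 2, was read at the gene starts. In vector cells, 3 of the 8 genes (FN1, VCAN and LOX) had a region within 1 kb of the start, where 11.2% of all genes had one. In RWPE1-ERG only VCAN had one (4.42% of genes), and in cells with ERG S96E, FN1, VCAN and TIMP3 had one (8.57%). VCAN was the only member with a region at its start in all 3 lines, with fold enrichments of 2.67, 3.14 and 5.63. The regions at the starts of FN1 and LOX in vector cells had 1.65 and 1.93. Most regions of these lists are weak. A q-value of at most 0.01 was reached by 29 of 492265 regions in vector, 39 of 228233 in ERG and 3413 of 252784 in ERG S96E cells. Regions covered 18.6%, 8.96% and 16.6% of VCAN in vector, ERG and ERG S96E cells, and 98.0%, 97.6% and 96.4% of genes were covered less. VCAN RNA was 7.17 FPKM in vector and 2.01 in ERG cells, and RNA of ERG S96E cells was not analysed here.

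TNC came next in vector cells, where it was covered over 11.1% of its length, more than 94.1% of genes. It was covered over 0% in ERG cells and 0.223% in ERG S96E cells. In vector cells TGM2 was covered over 3.88%, LOX over 3.38%, SPARC over 2.19% and FN1 over 2.01%, and THBS1 over 1.12%. TIMP3 was covered over 1.39%, 0% and 3.25% in vector, ERG and ERG S96E cells, the last more than 90.0% of genes, and its region at the start in ERG S96E cells had a fold enrichment of 2.77. In ERG cells no member but VCAN had any region in the gene. The median over all genes was 1.75% in vector and 0% in the other two, from 492265, 228233 and 252784 regions, so the lists differ in how much was called.

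**Figure D5:**
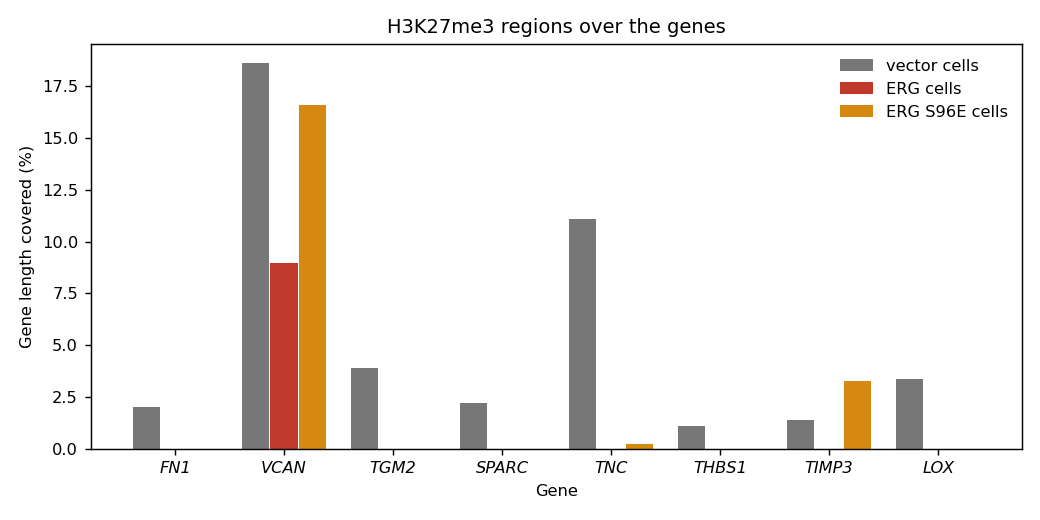
Share of the length of each gene covered by H3K27me3 regions, in percent, in vector cells (grey), ERG cells (red) and ERG S96E cells (orange), 1 library each. VCAN is covered over 18.6%, 8.96% and 16.6%, TNC over 11.1% in vector cells, and every other bar is at 3.88% or less.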

How the data were processed

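Expression came from the authors' deposited Cuffdiff table of FPKM, made from TopHat2 alignments and pooled over 3 libraries of each line, with 0 columns of single samples. The table also holds the authors' own comparisons (log2 fold changes, test scores, p-values and q-values), which were not used. Peaks came from the authors' deposited MACS2 lists on hg19 (Bowtie2 alignments, blacklist and duplicates removed, ChIP experiments pooled per library), which give a fold enrichment, a pileup signal, and −log10 p-values and −log10 q-values. The ERK2 and RWPE1-ERG/mAKT ERG lists were called with MACS2 2.1.2 and the H3K27me3 lists with 2.2.7.1, per the file headers.

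From these, log2 ratios of FPKM + 1 were computed over the 12667 genes with at least 1 FPKM in any line, and genes at least 2-fold apart were counted. 2 gene names that stood on more than 1 row were left out. Peaks were matched to genes by 1 bp of overlap with the locus in the table, widened by 20 kb, or with the GENCODE span, and places come from GENCODE mapped to GRCh37, for which 11434 of the expressed genes matched. Since values are pooled and each ChIP or ATAC group has 1 library, no test was run, and shares of all genes stand beside the counts of 2-fold ratios and of genes with a peak. The 8 genes and all lists were chosen with earlier results of these data known. Genes named from each list are up to 4 of the largest ratio per comparison with at least 5 FPKM in the higher line, and other genes named with a level serve as markers or examples chosen after their values were seen. Some genes that these rules would name are not reported here. The lists under the labels of the VCaP DMSO input and the VCaP LY294002 ERG ChIP hold other contents and entered no comparison. Alternatives were another pseudocount, scaling, filters, windows, gene spans and peak limits. The code was tested on simulated data. Python 3.11.15 was used with pandas 2.3.3, pysam 0.24.0, numpy 2.4.6 and, for figures, matplotlib 3.10.9.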

Additional observations from a re-analysis of the deposited data

Results flagged for a closer look

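FN1 had opposite ratios for ERG in the 2 backgrounds. Its log2 ratio was 1.43 when ERG was added to vector cells and -1.13 when it was added to mAKT cells. It was the sole gene of the 8 past 2-fold both ways, and the difference was not tested.

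A pair of peak lists that entered no comparison also hold peaks at these genes. LY294002 is a PI3K inhibitor, given at 1 uM to VCaP cells that entered no comparison here. The list under the label of the VCaP DMSO input, whose header is that of ERG ChIP after LY294002, has a peak within 20 kb of 5 of the 8 genes (FN1, VCAN, TGM2, SPARC and LOX), beside 40.4% of all expressed genes. Its strongest peak near a member is at SPARC (chr5:151042565-151043707, fold enrichment 6.52, -log10 q-value 9.35), over 2 of the VCaP ERG peaks described above, and it has peaks at TGM2 over the downstream open site and within the intronic group. The list under the label of the VCaP LY294002 ERG ChIP, whose peak names are those of an RWPE1 ATAC list, has a peak at 8 of the 8 genes, beside 98.4% of all genes. It has 34 peaks near them, and 6 of the 8 gene starts have one, SPARC included, beside 86.4% of all starts. Which cells either list came from was not tested.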

How the results depend on the processing

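No paired analysis was possible because the FPKM are pooled over the libraries of a line, and for the same reason no library could be left out. With a pseudocount of 0.1, the count of genes 2-fold apart was 2 for ERG/mAKT over mAKT (1 as reported, VCAN added) and 5 for ERG/mAKT over vector (3 as reported, SPARC and TGM2 added). With a 1.5-fold limit it was 7 for mAKT over vector (3 as reported), 2 for ERG/mAKT over mAKT and 5 for ERG/mAKT over vector, since the limit is wider. Of 80 log2 ratios of single genes recomputed with the other pseudocount or with lines scaled to a median log2 ratio of 0, 13 moved by 0.1 or more, all with the pseudocount, and 0 changed sign past 2-fold. With the 33000 ATAC peaks of lowest p-value, 5 genes had one in mAKT cells. A window of 50 kb gave 4 genes with an ERG peak in ERG/mAKT cells and 8 with an ERK2 peak in vector cells. A q-value of at most 0.01 left 1 gene with an ERG peak in ERG/mAKT cells, 2 in VCaP, 0 with an ERK2 peak in vector cells and 1 in ERG cells, and 3 ERG peaks with GGAA at the summit (8 as reported), because fewer peaks remain. The GENCODE span gave 1 gene with an ERG peak in ERG/mAKT cells. For H3K27me3 in vector cells, regions of at least 2-fold enrichment left 1 gene start and 5 kb around the start gave 6 (3 as reported). The other 47 recomputed counts and values stayed within 1.5 times or 0.1 of those reported. The depth of the RNA libraries is unknown, and few ChIP peaks near these genes pass a strict limit.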
